A study of Homo sapiens with 10 samples.

Results

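The HOX genes of UT-SCC-12a cells were read from every main-category probe set whose deposited gene symbol was HOX, a cluster letter from A to D and a number. This rule found 37 probe sets for 36 genes, among 48144 gene-level probe sets tested in all. HOXD4 had 2 probe sets, and every other gene had 1. RefSeq lists 39 HOX genes, and HOXA9, HOXC4 and HOXC5 had no probe set under their own symbol. Whether the large probe sets named HOXA10 (40 probes) and HOXC6 (52 probes) also read these genes was not tested. UT-SCC-12a cells are an established human line from a squamous cell carcinoma of the skin, a cancer of keratinocytes. Both groups were stable lentiviral lines made with the same vector system, shMIMIC. The overexpressing group carried miR-23b-3p and the control group carried a scrambled RNA, with 5 arrays in each. By its title, the series asks about RRAS2, a GTPase related to RAS, as a target of the microRNA. The sources used here name no clone and do not say whether the 5 samples of a group were cultured separately, so the p-values cover the spread among these arrays, which may be technical. All cells came from 1 line, which limits what the comparison covers.

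HOX genes encode homeodomain transcription factors that give cells a position along the body axis. In humans they lie in 4 clusters, and their order along the chromosome follows where they act, from the anterior groups with low numbers to the posterior groups with high numbers. Genes with the same number in different clusters are paralogs. Adult keratinocytes and fibroblasts keep a HOX pattern that reflects the body site they came from, and HOXC13 in skin is best known for hair follicle keratins.

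The clusters also encode microRNAs. The sequences below, from RefSeq on GRCh38.p14, are the mature microRNA that was overexpressed and, for reference, mature microRNAs encoded in the HOX clusters, of which the miR-10a and miR-196b genes had no measured probe set here. Each is written from 5′ to 3′, and the capitals mark the seed, bases 2 to 8, with which a microRNA pairs to its targets. The overexpressed strand lies at chr9:95085265-95085287 on the plus strand, outside the HOX clusters.
hsa-miR-23b-3p: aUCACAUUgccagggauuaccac
hsa-miR-196a-5p: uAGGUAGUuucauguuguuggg
hsa-miR-196b-5p: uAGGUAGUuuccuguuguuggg
hsa-miR-10a-5p: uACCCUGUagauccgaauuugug
hsa-miR-615-3p: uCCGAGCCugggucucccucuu
The miR-196 pair shares the seed AGGUAGU and is known for repressing HOX genes, HOXB8 among them. Each of the other microRNAs shown has a seed of its own. The mature miR-196a-5p comes from a gene in the HOXB cluster, MIR196A1, and from another in the HOXC cluster, MIR196A2.

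Levels are log2 values after robust multi-array averaging (RMA), a method that corrects the background, makes the arrays' distributions equal and combines the probes of a probe set. Probe sets differ in how strongly they bind and glow, so a level places a gene within the array's own distribution and does not measure its transcripts against those of another gene. The arrays were alike in scale, with medians between 3.14 and 3.19. The mean level of the 36 HOX genes lay between 3.95 and 4.12 per array. Control replicate 1 had the highest mean, 4.121, followed by overexpressing replicate 3 at 4.035. Labelling spikes of poly-A RNA read 5.44 to 5.48 on the control arrays and 5.20 to 5.46 on the overexpressing arrays. All overexpressing arrays but replicate 5 read below every control array. A fit with the spikes as a covariate therefore cannot cleanly tell them apart from the group. The part of these spikes in the results was not tested beyond that fit. The precursor of the overexpressed microRNA, MIR23B, read 6.15, 6.43, 5.88, 6.25 and 6.36 in control replicates 1 to 5 and 6.33, 6.68, 6.61, 6.24 and 6.30 with miR-23b-3p. The groups overlapped, with a difference of 0.22 (SE 0.12, limma adjusted p = 0.799), and a probe set of the genomic precursor need not read a lentiviral transcript. RRAS2 was at 6.40 in control and 6.22 in overexpressing arrays, a log2 difference of -0.18 (SE 0.06, limma adjusted p = 0.665). All 5 overexpressing arrays, at 6.10 to 6.33, lay below all controls, at 6.34 to 6.49. The unadjusted limma p was 0.0145 and the exact two-sided permutation p was 0.00794, the smallest possible. Groups that do not overlap, which give this same permutation p, were found in 1.35% of all probe sets tested.

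Most keratinocyte markers of the labelled cell type were high, and a few keratins were not. Of the 12 markers, 9 lay above the antigenomic background defined below, among them ITGA6 at 11.04, CDH1 at 10.82, TP63 at 8.63 and KRT5 at 8.19. KRT14, KRT6A and KRT17, keratins of basal and activated keratinocytes, were at 3.70, 3.72 and 3.82. The summed level of all 12 ranged from 97.4 to 98.3 in control and from 97.1 to 97.9 in overexpressing arrays. None of the 6 fibroblast, 4 measured endothelial, 6 blood and 5 melanocyte markers lay above that background. The highest of these other markers was KDR, an endothelial receptor, at 4.50. Summed levels of the fibroblast markers were 17.4 to 18.0 in control and 17.5 to 18.4 in overexpressing arrays, those of the endothelial markers 14.3 to 14.9 and 14.6 to 15.7, those of the blood markers 15.96 to 16.70 and 15.55 to 16.28, and those of the melanocyte markers 14.1 to 14.9 and 13.9 to 15.1. The ranges of the groups overlapped for each of these lists.

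Most HOX genes sat in the middle of the distribution of main probe sets, more of them above its median than below. The median of the 36 genes was 3.94, against a median of 3.16 over all main probe sets, and their median percentile among main probe sets was 63.8. Above the main median lay 24 of the 36 genes, above its 75th percentile of 5.07 lay 5, and below its 25th percentile of 2.48 lay 1. Background was read from antigenomic and from intronic controls. The 23 antigenomic probe sets, which match no human sequence and are designed to differ in base composition, had a median of 2.37 and ran from 1.85 to 6.22. Their 95th percentile was 6.14, and 3 HOX genes exceeded it, HOXC10 and HOXA2 among them. Most main probe sets lay below it too, since it is above their 75th percentile. The 3575 intronic control probe sets had a median of 3.41 and a 95th percentile of 6.53, which no HOX gene exceeded. The number of HOX genes read as above background therefore ran from 0 to 3 under these 95th percentiles. All 36 exceeded the antigenomic median. The intronic median lay above the median of main probe sets, and HOXB1, at 3.26, lay between them. A level above the main median is therefore not by itself a level above background. In bulk RNA, fewer cells that express a gene and less RNA per cell cannot be told apart.

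**Figure D1:**
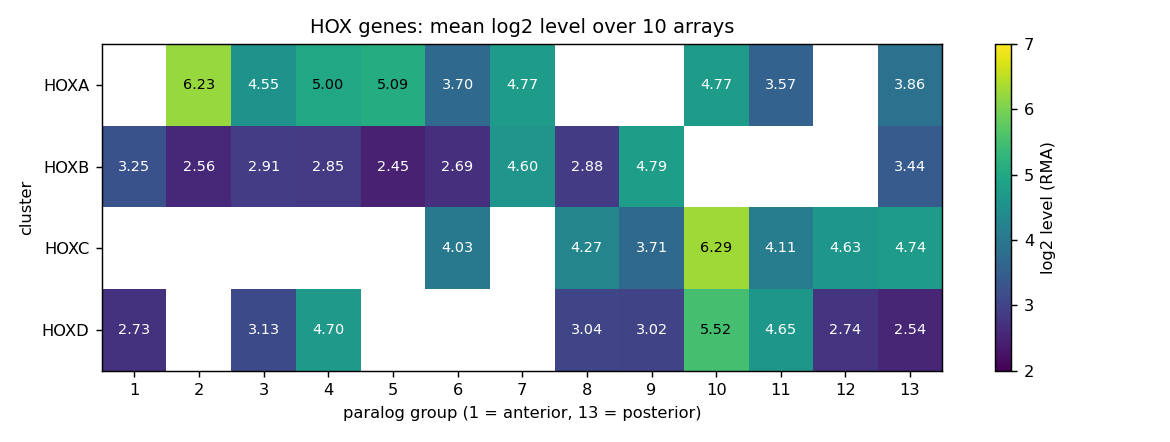
Mean log2 level of each HOX gene over the 10 arrays, by cluster (rows) and paralog group (columns), with white where no value is shown. The brightest cells shown are HOXC10 at 6.29 and HOXA2 at 6.23, and the HOXB row from group 2 to group 6 is below 3.

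The HOXA probe sets described here span 100.005 kb (hg19 chromosome 7, 27139721 to 27239725, minus strand). All of its 10 measured genes lay above the median of main probe sets, with a cluster median of 4.77. HOXA2, a gene of the second pharyngeal arch, was at 6.23, the 84.0th percentile of main probe sets. The middle of the cluster was lower within the distribution, with HOXA3 at 4.55, HOXA4 at 5.00, HOXA5 at 5.09, HOXA6 at 3.70 and HOXA7, a repressor of keratinocyte differentiation genes, at 4.77. Posterior members were HOXA10, a gene of the developing uterus, at 4.77, HOXA11 at 3.57 and HOXA13, a gene of the distal limb and genital tract, at 3.86. Probe set intervals of HOXA3, HOXA4, HOXA5 and HOXA6 overlapped on the same strand, so their levels may share transcripts. HOTAIRM1, a noncoding transcript at the anterior end beside HOXA2, was at 5.64 and HOXA10-AS at 5.33. HOTTIP, at the other end beside HOXA13, was at 2.67.

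The HOXB cluster spans 199.99 kb (hg19 chromosome 17, 46606550 to 46806540, minus strand) and had a median of 2.90. Only HOXB9 at 4.79, HOXB7 at 4.60, HOXB13 at 3.44 and HOXB1 at 3.26 lay above the median of main probe sets. Below it lay HOXB2 at 2.56, HOXB3 at 2.91, HOXB4 at 2.85, HOXB5 at 2.45, HOXB6 at 2.69 and HOXB8 at 2.88. HOXB5 was the one HOX gene below the 25th percentile of main probe sets. The interval of HOXB7 (46684590 to 46724385) contains those of HOXB8 and HOXB9 on the same strand, and that of HOXB3 contains that of HOXB4. HOXB13, which lies far from the rest and is known for its role in prostate, had PRAC1 at 2.46 and PRAC2 at 2.62 as neighbours. MIR196A1 was at 2.68.

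The HOXC cluster spans 117.3 kb (hg19 chromosome 12, 54332535 to 54449814, plus strand). All of its 7 measured genes lay above the median of main probe sets, with a cluster median of 4.27. HOXC10, a gene of lumbar motor neurons and hindlimb, was at 6.29, the 84.4th percentile. Next within the array's distribution came HOXC13, the hair follicle gene, at 4.74 and HOXC12 at 4.63. HOXC8 was at 4.27, HOXC11 at 4.11, HOXC6 at 4.03 and HOXC9 at 3.71. The interval of HOXC6 (54384408 to 54449814) reaches over HOXC8 and HOXC9. HOTAIR, the noncoding RNA between HOXC11 and HOXC12, was at 2.97.

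MIR196A2 lay much higher in the array's distribution than any HOX gene. It read 10.90, 10.83, 10.88, 10.80 and 10.78 in control replicates 1 to 5 and 10.81, 10.86, 10.90, 10.68 and 10.90 with miR-23b-3p. Its mean of 10.83 was at the 99.6th percentile of main probe sets, and the groups overlapped almost completely. The difference was -0.01 (SE 0.06, limma adjusted p = 0.991). The probe set (hg19 chromosome 12, 54385522 to 54385631, plus strand) lies within the interval of HOXC6, which was at 4.03. A probe set of a hairpin gene can read the precursor or its host transcript as well as the mature strand, and which of them it read was not tested. MIR615, the other microRNA of this cluster with a probe set, was at 2.87.

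The HOXD cluster spans 98.2 kb (hg19 chromosome 2, 176957532 to 177055688, plus strand), with 9 genes, 10 probe sets and a median of 3.04 over genes. HOXD10 at 5.52, HOXD4 at 4.70 and HOXD11 at 4.65 lay above the median of main probe sets. The other members were HOXD3 at 3.13, HOXD8 at 3.04, HOXD9 at 3.02, HOXD12 at 2.74, HOXD1 at 2.73 and HOXD13, a gene of digit formation, at 2.54. The HOXD4 probe set at 4.70 is marked in the annotation as cross-hybridizing (type 3), and the other HOXD4 probe set, at 4.34, is not. The interval of HOXD3 contains those of both HOXD4 probe sets on the same strand, and these overlap each other. The intervals of HOXD10 and HOXD11 also overlap. HAGLR was at 3.02 and HAGLROS at 3.42.

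**Figure D2:**
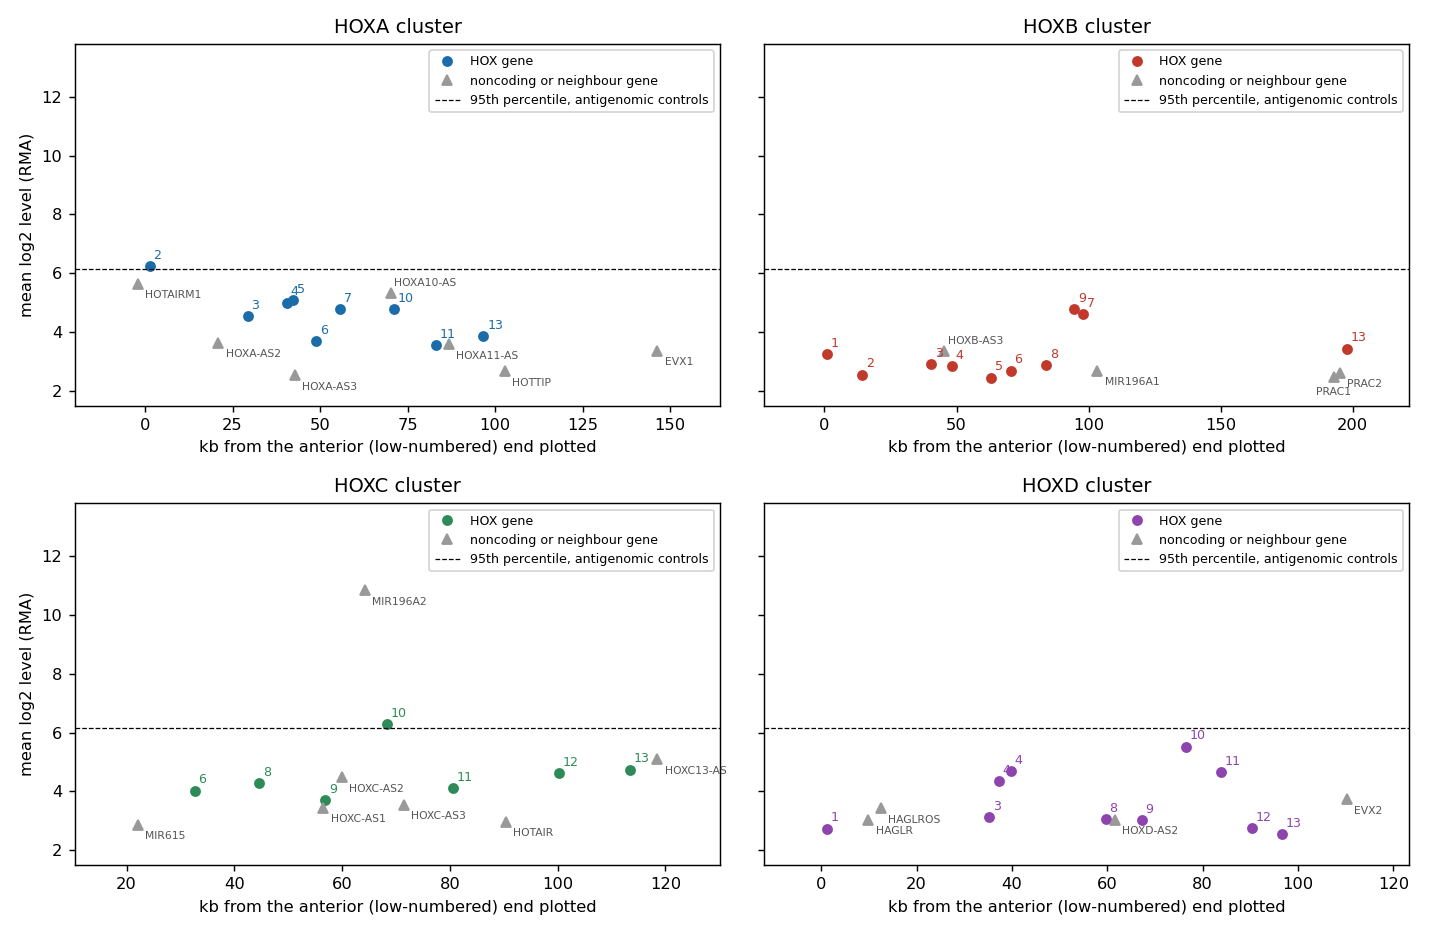
Mean log2 level over 10 arrays of each HOX gene (circles, numbered by paralog group) and of listed noncoding or neighbour genes (triangles) by the middle of its probe set interval, in kb from the low-numbered end of the HOX probe sets plotted in each cluster. The dashed line is the antigenomic 95th percentile of 6.14, and MIR196A2 at 10.83 is the one symbol far above it.

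By position, the 11 genes of groups 1 to 4 had a median level of 3.26, the 10 genes of groups 5 to 8 a median of 3.87 and the 15 genes of groups 9 to 13 a median of 4.11. Above the median of main probe sets lay 6, 6 and 12 of them. The clusters did not all follow that order. In HOXA the median was 5.62 over groups 1 to 4 and 3.86 over groups 9 to 13, whereas in HOXB it was 2.88 over groups 1 to 4 and 4.11 over the 2 genes of groups 9 to 13. In HOXC it was 4.15 over groups 5 to 8 and 4.63 over groups 9 to 13, and in HOXD 3.13 over groups 1 to 4 and 3.02 over groups 9 to 13. Every measured member of groups 7, 10 and 11 lay above the median of main probe sets. In group 13, HOXC13, HOXA13 and HOXB13 lay above it and HOXD13 below it.

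The comparison of miR-23b-3p with the scrambled control found no HOX gene that passed the test. At a limma adjusted p under 0.05, 0 of 37 HOX probe sets were called, against 0.0187% (9 of 48144) of all probe sets tested, of which 7 were lower and 2 higher. The lowest adjusted p of a HOX probe set was 0.667. At an unadjusted limma p under 0.05 there were 2 HOX probe sets, HOXB9 and HOXB4, or 5.41%, against 6.63% of all probe sets. The methods' t-test, which the deposited table's header names, gave 1, or 2.70%, against 6.68% of all. The groups were fully apart in 0 HOX probe sets, against 1.35% of all. In this fit and by the methods' t-test, the HOX shares were near or below the background.

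The differences were small in both directions. Of the 36 genes, 17 were higher and 19 lower by any amount, and 48.4% of all probe sets tested were lower. The median log2 difference of the HOX genes was -0.005, against 0.002 over all probe sets. The median size of the difference, without its sign, was 0.058 in HOX probe sets and 0.070 over all. Past 0.2 in size lay 3 HOX probe sets, 8.11%, against 8.74% of all.

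The precision of the arrays bounds what differences of array level could have been missed. The SD between replicates of a HOX probe set, pooled over groups, ranged from 0.08 for HOXB1 to 0.38 for HOXD11, with a median of 0.17. Of the 37 limma 95% intervals of the difference, 35 contained 0, and 34 lay wholly within -0.5 to 0.5, that is within 1.41-fold either way. Their widths ran from 0.28 to 0.87, with a median of 0.44. The widest belonged to HOXD11, whose arrays spread over 1.18. A p-value above the threshold does not show that levels were equal, and the intervals still allow differences up to their bounds. How far array level follows RNA amount in probe sets near background was not tested, so the intervals do not bound changes of RNA.

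**Figure D3:**
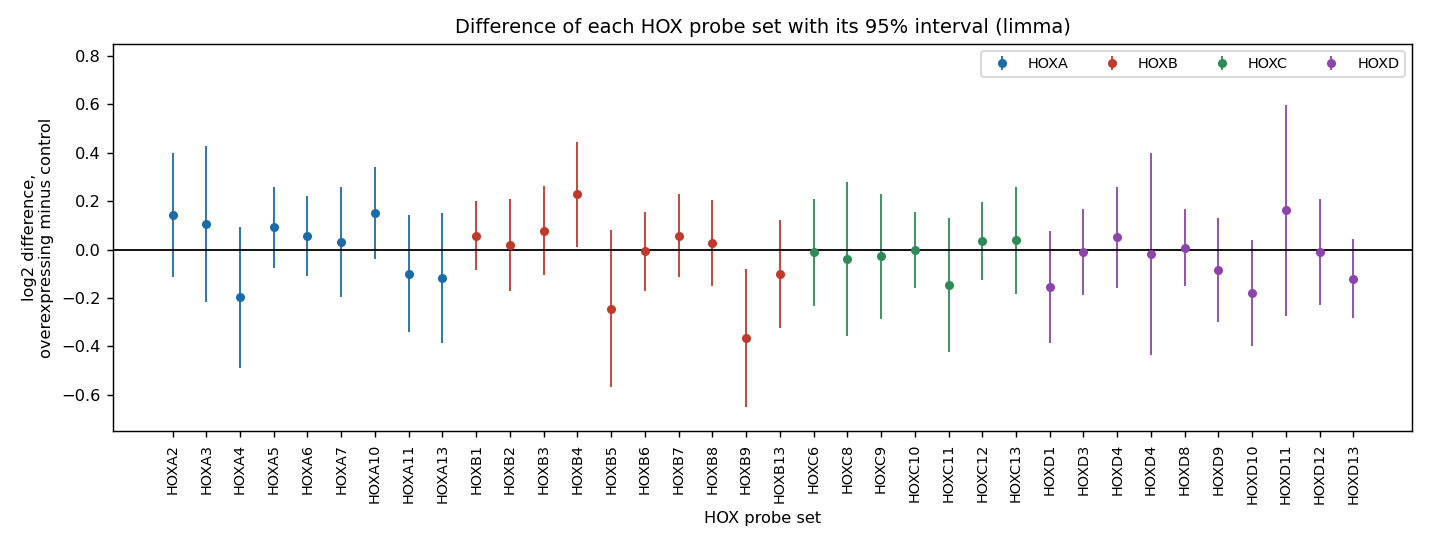
Log2 difference, overexpressing minus control, of 36 HOX probe sets (points) with its limma 95% interval (lines), coloured by cluster. All intervals shown but those of HOXB9, below 0, and HOXB4, above 0, cross the zero line.

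HOXB9, a posterior gene with roles in the thoracic skeleton and mammary gland, had the smallest p and the greatest difference among HOX probe sets. It read 5.09, 5.28, 4.80, 4.78 and 4.90 in control replicates 1 to 5 and 4.73, 4.38, 4.99, 4.53 and 4.39 with miR-23b-3p. Of the 5 overexpressing arrays, 4 lay below every control, and replicate 3 lay within the control range. Means were 4.97 ± 0.21 (SD, n = 5) and 4.60 ± 0.26 (SD, n = 5). The log2 difference was -0.37 (SE 0.13, 95% interval -0.65 to -0.08), with an unadjusted limma p of 0.0157 and an adjusted p of 0.667. The exact two-sided permutation test gave p = 0.0556, where the smallest p that 5 against 5 allows is 0.00794. In the authors' deposited table its signed fold was -1.28, with p = 0.0473 and q = 0.705.

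HOXB4, known for expanding blood stem cells, was the other gene under an unadjusted limma p of 0.05, at a level below the median of main probe sets. It read 2.92, 2.67, 2.79, 2.43 and 2.87 in control and 3.12, 3.10, 2.89, 2.86 and 2.85 in overexpressing replicates 1 to 5. Replicates 1 and 2 of the overexpressing group lay above all controls, and the other 3 lay within their range. Means were 2.74 ± 0.20 (SD, n = 5) and 2.96 ± 0.13 (SD, n = 5), a log2 difference of 0.23 (SE 0.10, 95% interval 0.01 to 0.44). The limma p was 0.0401 unadjusted and 0.741 adjusted, and the exact two-sided permutation p was 0.0794. Without control replicate 4, the lowest array, the difference was 0.15 (limma adjusted p = 0.853).

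HOXD10, a tumour-suppressing gene in other cancers and a known target of miR-10b, was the highest of the HOXD probe sets within the distribution. It read 5.80, 5.77, 5.27, 5.50 and 5.70 in control and 5.32, 5.53, 5.42, 5.34 and 5.53 in overexpressing replicates 1 to 5. Every overexpressing array lay within the control range. The difference was -0.18 (SE 0.10, limma adjusted p = 0.812, exact permutation p = 0.143).

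HOXA10 read 4.66, 4.66, 4.86, 4.89 and 4.42 in control and 4.84, 4.89, 4.80, 4.93 and 4.78 in overexpressing replicates 1 to 5. The overexpressing arrays were closer together, with an SD of 0.06 against 0.19, and 1 of them lay above all controls. The difference was 0.15 (SE 0.09, limma adjusted p = 0.815), 0.09 with the poly-A spike as a covariate and 0.08 without control replicate 5.

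HOXB5, a gene of gut and lung development, was near the lower end of the array. It read 2.90, 2.32, 2.34, 2.37 and 2.93 in control and 2.25, 2.41, 2.18, 2.11 and 2.69 in overexpressing replicates 1 to 5. Controls 1 and 5 and overexpressing replicate 5 stood above the rest of their groups. The difference was -0.24 (SE 0.15, limma adjusted p = 0.824), and -0.0028 with the poly-A spike of each array as a covariate. It was -0.16 without control replicate 1 and -0.15 without control replicate 5.

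HOXD13 read 2.68, 2.62, 2.55, 2.41 and 2.72 in control and 2.37, 2.46, 2.50, 2.63 and 2.42 in overexpressing replicates 1 to 5. The groups overlapped, with 1 overexpressing array below all controls. The difference was -0.12 (SE 0.08, limma adjusted p = 0.832), and -0.21 with the poly-A spike as a covariate.

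HOXC10, the highest of its cluster within the distribution, differed little. It read 6.49, 6.23, 6.21, 6.24 and 6.30 in control and 6.18, 6.43, 6.29, 6.26 and 6.30 in overexpressing replicates 1 to 5. Its groups covered almost the same range, with a difference of -0.002 (SE 0.07, limma adjusted p = 0.997).

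**Figure D4:**
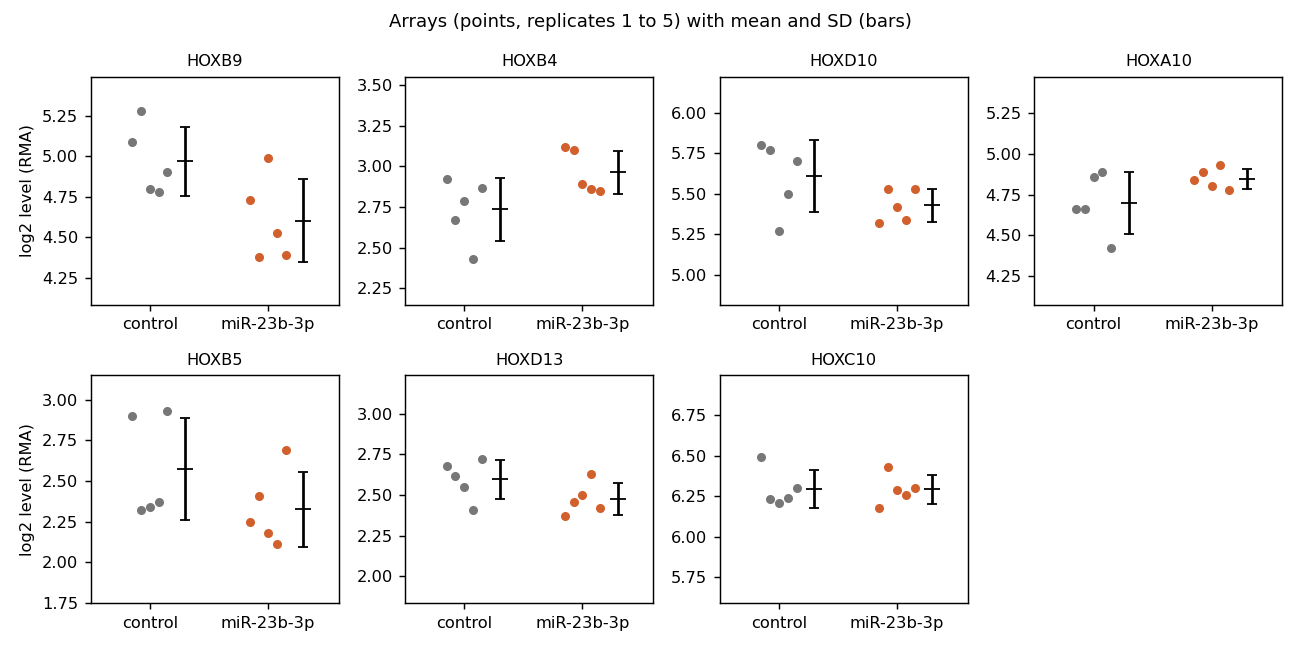
Log2 levels on each array (points, replicates 1 to 5 from left to right) with mean and SD (bars) for 7 HOX genes with the smallest p or the highest level of their cluster. Each panel spans 1.4 on the log2 scale, and in no panel are the groups fully apart.

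The remaining probe sets had limma differences from -0.20 for HOXA4 to 0.16 for HOXD11. In HOXA, HOXA2 differed by 0.14, HOXA3 by 0.11, HOXA5 by 0.09, HOXA6 by 0.06 and HOXA7 by 0.03, and HOXA11 by -0.10 and HOXA13 by -0.12. HOXA4 read 5.35, 5.07, 4.98, 4.92 and 5.19 in control and 5.40, 4.79, 4.71, 4.67 and 4.95 in overexpressing replicates 1 to 5, so that 3 overexpressing arrays lay below all controls while replicate 1 was the highest of all. Its limma adjusted p was 0.841.

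In HOXB, HOXB1, HOXB2, HOXB3, HOXB6 and HOXB8 differed by 0.06, 0.02, 0.08, -0.01 and 0.03, HOXB7 by 0.06 and HOXB13 by -0.10. In HOXC, the differences were -0.01 for HOXC6, -0.04 for HOXC8, -0.03 for HOXC9, -0.15 for HOXC11, 0.03 for HOXC12 and 0.04 for HOXC13. HOXC13, which regulates hair keratins, had adjusted p = 0.968 by limma. In HOXD, they were -0.15 for HOXD1, -0.01 for HOXD3, 0.01 for HOXD8, -0.08 for HOXD9 and -0.01 for HOXD12. The 2 HOXD4 probe sets disagreed in sign, at 0.05 and -0.02, both well within their SEs of 0.10 and 0.19. HOXD11 had the widest spread of all, from 3.89 to 4.98 in control and from 4.28 to 5.07 in overexpressing arrays.

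**Figure D5:**
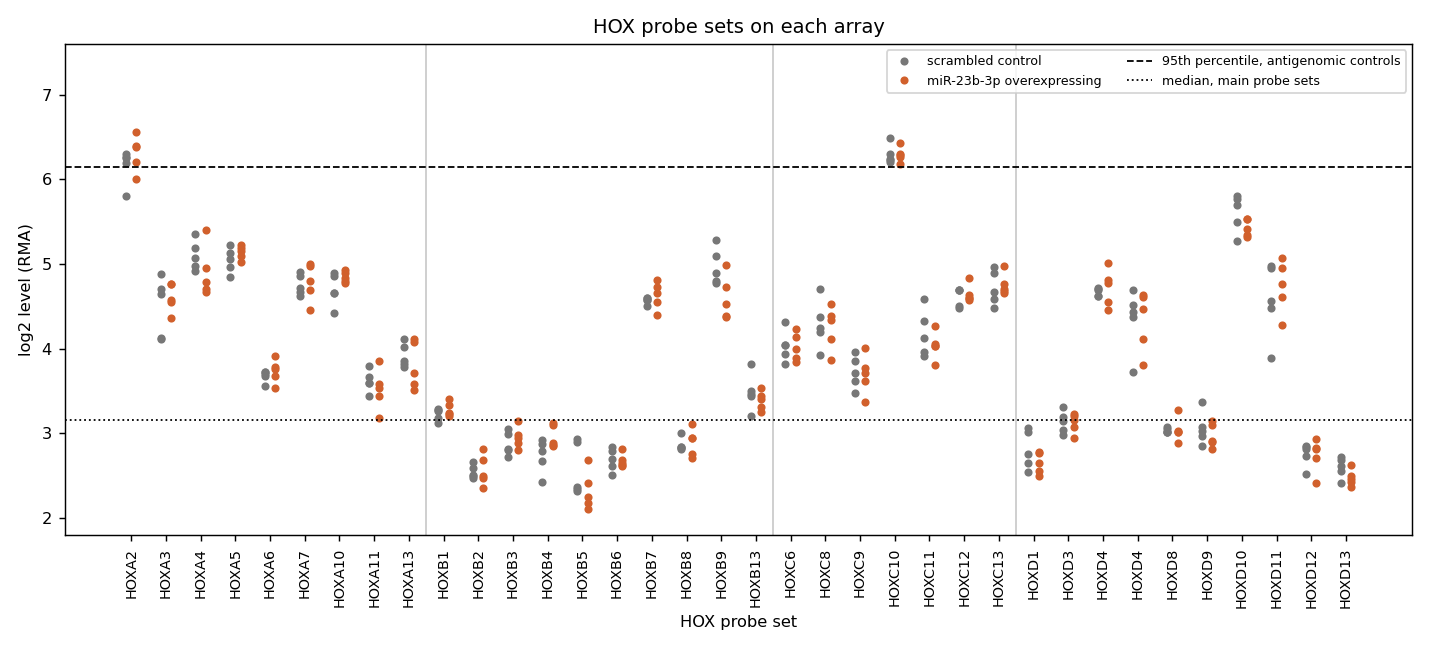
Log2 level of each HOX probe set on the 5 control arrays (grey) and the 5 overexpressing arrays (orange), with grey lines between clusters, the antigenomic 95th percentile (dashed) and the median of main probe sets (dotted). Grey and orange points overlap in each of the 36 probe sets shown, and spreads are wider for some, HOXD11 among them.

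By cluster, 6 genes were higher and 4 lower in HOXA, 6 and 4 in HOXB, 2 and 5 in HOXC, and 3 and 6 in HOXD. Median differences were 0.04, 0.02, -0.01 and -0.01. By position, 7 of 11 genes of groups 1 to 4 were higher, with a median difference of 0.05. In groups 5 to 8, 6 of 10 genes were higher, with a median of 0.02. In groups 9 to 13, 11 of 15 genes were lower, with a median of -0.08. Over all probe sets tested, 48.4% were lower. Of those 15, HOXB9 alone had an unadjusted p under 0.05. The 3 measured members of group 9 were all lower, HOXB9 by -0.37, HOXC9 by -0.03 (SE 0.12) and HOXD9 by -0.08 (SE 0.10). The differences of HOXC9 and HOXD9 were smaller than their SEs. Neighbouring probe sets can share transcripts, so these counts are not counts of independent genes.

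HOX proteins bind DNA with TALE homeodomain cofactors of the PBX, MEIS and PKNOX families. Of 9 listed, 8 were measured, 5 were higher and 3 lower, and 0 were called, with 0 at an unadjusted limma p under 0.05. PBX4 differed by 0.11 (SE 0.06, limma adjusted p = 0.812) and MEIS1 by 0.13 (SE 0.10, limma adjusted p = 0.852). PKNOX1 was at 5.85 and MEIS2 at 5.46, both above the 75th percentile of main probe sets.

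Polycomb complexes keep HOX clusters silent, and the trithorax group with KMT2A keeps them active. In the Polycomb list 22 of 23 genes were measured, 11 higher and 11 lower, and 16 lay above the antigenomic 95th percentile. None was called, and 1 had an unadjusted limma p under 0.05, against 6.63% of all probe sets. That gene was EZH2, the histone methyltransferase of the complex, which was at 8.15 in control and 8.31 in overexpressing arrays (difference 0.16, SE 0.06, limma adjusted p = 0.706). PHC1 differed by 0.15 (SE 0.10, limma adjusted p = 0.832). In the trithorax list all 15 genes were measured, 8 higher and 7 lower, and 0 were called. Here too 1 had an unadjusted limma p under 0.05, against the same 6.63%. AFF1, an elongation factor fused to KMT2A in leukaemia, was at 7.16 in control and 7.39 in overexpressing arrays. Its groups did not overlap, as in 1.35% of all probe sets. Its difference was 0.23 (SE 0.06, limma adjusted p = 0.466). KMT2C differed by 0.12 (SE 0.06, limma adjusted p = 0.777), and KMT2A itself by 0.01 (SE 0.06).

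Retinoic acid induces HOX genes in the embryo in the order of the cluster. Of 23 genes for its synthesis, breakdown and receptors and for other upstream factors, 13 were higher and 10 lower, and 0 were called, with 4 lower and 0 higher at an unadjusted limma p under 0.05 (6.63% of all probe sets in either direction). DHRS9, a dehydrogenase that can oxidize retinol, read 6.77, 6.58, 6.67, 6.64 and 6.50 in control and 6.21, 6.19, 6.23, 6.34 and 6.29 in overexpressing replicates 1 to 5. All 5 overexpressing arrays lay below all controls, with a difference of -0.38 (SE 0.07, unadjusted p = 8.49e-05, limma adjusted p = 0.163). Groups also did not overlap in 1.35% of all probe sets tested, and the arrays of DHRS9 were given after their values were seen. ALDH1A2, which makes retinoic acid in the embryo, differed by -0.30 (SE 0.11, limma adjusted p = 0.688) at a level of 2.67, below the median of main probe sets. The other 2 were ALDH1A1 by -0.18 and RXRG by -0.17, at levels of 2.58 and 2.54, and they were named for their count after their values were seen.

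Of 35 noncoding and neighbour genes of the clusters, 29 were measured, 18 higher and 11 lower, with a median difference of 0.03. None was called, and 1 had an unadjusted limma p under 0.05, against 6.63% of all probe sets. That was EVX2, the homeobox gene beside HOXD13, at 3.58 in control and 3.88 in overexpressing arrays (difference 0.29, SE 0.11, limma adjusted p = 0.706). MTX2, on the HOXD1 side of that cluster, differed by -0.14 (SE 0.07, limma adjusted p = 0.766). Of 26 other homeobox genes of epithelium, 14 were higher and 12 lower, and 0 were called. At an unadjusted limma p under 0.05 there were 2, both higher, against 6.63% of all probe sets in either direction. These were BARX2, at 3.38 in control and 3.74 in overexpressing arrays (difference 0.36, SE 0.12, limma adjusted p = 0.639), and DLX5, with a difference of 0.16 (SE 0.07, limma adjusted p = 0.732).

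The patterns most like that of HOXB9 over the 10 arrays, among 10085 other main probe sets with 1 symbol and a mean level above 5, were IFFO2 with a Pearson correlation of 0.918, KCTD12 with 0.887, CAV1 with 0.885, ADAMTS12 with 0.874 and DNM1 with 0.874. The correlations describe these arrays and carry no p, since all values share the same 10 hybridizations and were picked as the highest of many. Both groups entered the correlations, so a group difference in the direction of that of HOXB9 raises them. KCTD12 differed by -0.36, IFFO2 by -0.25, DNM1 by -0.20, ADAMTS12 by -0.14 and CAV1 by -0.09 between the groups. None of them was called by limma (adjusted p from 0.476 for KCTD12 to 0.850 for CAV1).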

How the data were processed

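Total RNA was hybridized as biotin-labelled cDNA to Affymetrix human gene arrays, per the labels. The deposited values are log2 levels made by RMA, per the submitters' processing notes, given to 2 decimals. The authors' table gives signed fold (ratio) changes, p-values and q-values from Student's t-test, and NetAffx build 36 annotation on hg19, per the file headers. Its fold equalled the ratio of overexpressing over control means for 53617 of 53617 probe sets (relative tolerance 0.001). Its 10 per-array columns match no sample label and were not used.

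Groups came from sample titles. Limma 3.58.1 (lmFit, eBayes; R 4.3.3) was fitted to the 10 arrays with group as the only term. P-values were adjusted by Benjamini-Hochberg over 48144 probe sets, 44629 main and 3515 rescue. The other 5473 were controls and reporters. SE and intervals are limma's. Exact two-sided permutation tests ran over the 252 ways to choose 5 of 10 arrays. No pair of arrays shared more than 2.16% of identical values. The fit was tested on simulated data.

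Array-by-array values are given for the 6 HOX probe sets with the smallest limma p, the highest of each cluster and the 2 greatest differences. Some items, one that this rule selects among them, are not reported here and enter counts and medians only. HOXA4, MIR196A2 and DHRS9 were given likewise after their values were seen, as were further list members named beside the 2 smallest p of each list. A gene with several probe sets is counted by its highest. List symbols were updated by Entrez identifier through RefSeq GRCh38.p14 (29773 of 31134). Members and lists were chosen with earlier results of these data known. Same-numbered arrays of the groups did not deviate together (correlations -0.10 to 0.04), so no pairing was used. Alternatives covered a replicate block, variance prior, the t-test, the dimmest 25%, centring, quantile normalization, array weights, probe set category, cross-hybridization, a poly-A spike covariate and each array left out.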

Additional observations from a re-analysis of the deposited data

Results flagged for a closer look

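In 5 of 74 groups of 5 arrays, 1 array stood apart from the other 4 by more than Dixon's 95% critical value, where chance alone gives about 1 in 20 groups, or 3.7. The lowest HOXA2 value among controls was 5.8 in replicate 1, against 6.19 to 6.30 in the other 4. HOXA6 was 3.56 in control replicate 4, against 3.68 to 3.72. HOXB7 was 4.5 in control replicate 3, against 4.58 to 4.60. HOXB8 was 3 in control replicate 3, against 2.81 to 2.84. HOXC12 was 4.83 in overexpressing replicate 3, against 4.57 to 4.63. The part of these arrays in the results was not tested beyond leaving each array out.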

How the results depend on the processing

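The count of 0 called HOX probe sets held under all 10 other settings and in each of 10 fits without 1 array, with the lowest adjusted p between 0.521 and 0.800. The number with an unadjusted p under 0.05 was 2 in the reported fit, 4 with the replicate block (10.8%, against 6.14% of all probe sets), 1 by the methods' t-test (2.70%, against 6.68%) and 1 to 3 when single arrays were left out. The median HOX difference ran from -0.021 to 0.026, and that of HOXB9 from -0.47 to -0.29. With single arrays left out, HOXB4 ran from 0.15 to 0.27, HOXA10 from 0.08 to 0.20, HOXB5 from -0.33 to -0.15, HOXD10 from -0.26 to -0.13 and HOXD13 from -0.17 to -0.09. HOXC10 turned sign to 0.0020 with array weights and 0.018 with the poly-A spike covariate, and ran from -0.0365 to 0.047 with single arrays left out. HOX genes above background numbered 3, against 24 with the median of main probe sets as threshold and, chosen after seeing the data, 0 with the intronic 95th percentile and 36 with the antigenomic median. The cause of these shifts was not tested, beyond the thresholds' own construction. HOXB5, among the dimmest 25%, had no value with those left out. Over all probe sets, 9 were called, against 1 with the replicate block, 39 with an intensity trend and robust prior, 2 with the poly-A spike covariate and 5 to 8 without single arrays. Signal over background limits the levels, since 3 of 36 genes lay above the antigenomic 95th percentile. Most main probe sets lay below that threshold too, since it is above their 75th percentile.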
